A study of Mus musculus with 6 samples.

Results

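The 10 genes described here are *Fkbp5*, *Tsc22d3*, *Map3k6*, *Sgk1*, *Zbtb16*, *Plin4*, *Acer2*, *Sult1a1*, *Errfi1* and *Hif3a*, genes known to be induced by glucocorticoids in brain or other tissues. Each was found by its gene name in the deposited transcript assembly, and each lay on 1 locus that carried no other gene name, so that the 10 genes are 10 of 34632 loci. The 10 genes were chosen with their values in these libraries already known. Their difference between the genotypes is therefore given as a description, without a test.

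The series holds 6 RNA-seq libraries of whole brainstem from mice at postnatal day 21 (P21), each made from the pooled RNA of 3 brainstems, so that each genotype stands for 9 mice. The 3 libraries labelled *Hoxa5* cKO came from Hoxa5flox/flox;CMV-CreERT2+/- pups, which carry a tamoxifen-activated Cre recombinase under a promoter active in many tissues. The 3 libraries labelled *Hoxa5* control came from Hoxa5flox/flox;CMV-CreERT2-/- littermates, which lack the transgene, so that loss of *Hoxa5* and the presence of Cre cannot be told apart. Pups of both genotypes carry the floxed allele on both chromosomes and were given tamoxifen on each day from P1 to P4. The hour at which each brainstem was taken is not given in the sources used here. The deposited table numbers the libraries within each genotype. These numbers, here counted from 1, are used only as names and are not tied to a pool.

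Glucocorticoids are steroid hormones of the adrenal cortex, in mice mainly corticosterone, and they rise with stress and with the daily rhythm. They bind the glucocorticoid receptor, which is held ready by chaperones in the cytoplasm, enters the nucleus and binds a palindromic response element near its target genes. In the brain many of its best known targets are expressed in astrocytes, oligodendrocytes and the cells of blood vessels.

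The response element was looked for in RefSeq promoter windows (GRCm38.p6), which reach from 250 bases before to 50 bases after a transcript start. Of the 10 genes, 9 had at least 1 window, 17 windows in all, and *Zbtb16* had none. The strict palindrome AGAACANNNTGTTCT was present in 3 of 32851 windows (0.00913%), and 1 of these belonged to *Sgk1*. A looser palindrome, GNACANNNTGTNC, was present in 156 windows (0.475%) and included the *Sgk1* window and 1 window of *Map3k6*. The half-site AGAACA, read on either strand, was present in 6233 windows (19%) and in windows of *Sgk1*, *Sult1a1* and *Tsc22d3*. Each strict palindrome contains a loose one and a half-site on each strand. A match is a run of letters and not a measured binding site, and the absence of a match applies to these windows alone. The windows of the 4 genes with a match are shown 5′ to 3′ on the strand of the gene, because they hold the letters searched for, with every match in capitals. The matches begin 189 and 242 bases before the start in *Sgk1* (chr10:21993640-21993939, plus strand), 181 bases before it in *Map3k6* (chr4:133240568-133240867, plus strand), 185 bases before it in *Tsc22d3* (chrX:140600473-140600772, minus strand), and 212 and 34 bases before it in *Sult1a1* (chr7:126676369-126676668, minus strand).
Sgk1: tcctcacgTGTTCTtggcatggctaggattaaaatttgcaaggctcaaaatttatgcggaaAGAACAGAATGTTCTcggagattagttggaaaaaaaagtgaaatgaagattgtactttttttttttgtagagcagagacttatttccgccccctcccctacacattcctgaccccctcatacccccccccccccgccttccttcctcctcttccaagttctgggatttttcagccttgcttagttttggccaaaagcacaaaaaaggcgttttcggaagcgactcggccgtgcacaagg
Map3k6: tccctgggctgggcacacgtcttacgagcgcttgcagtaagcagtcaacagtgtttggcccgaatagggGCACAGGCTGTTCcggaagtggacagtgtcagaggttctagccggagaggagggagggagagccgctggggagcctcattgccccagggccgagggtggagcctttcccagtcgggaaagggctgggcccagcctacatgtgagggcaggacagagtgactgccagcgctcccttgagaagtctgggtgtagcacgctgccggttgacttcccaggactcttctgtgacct
Tsc22d3: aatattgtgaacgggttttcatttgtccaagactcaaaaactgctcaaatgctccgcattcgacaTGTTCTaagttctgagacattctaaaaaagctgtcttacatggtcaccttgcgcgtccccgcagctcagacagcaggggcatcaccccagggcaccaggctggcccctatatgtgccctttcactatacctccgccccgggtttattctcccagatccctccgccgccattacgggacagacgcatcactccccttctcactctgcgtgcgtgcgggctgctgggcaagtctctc
Sult1a1: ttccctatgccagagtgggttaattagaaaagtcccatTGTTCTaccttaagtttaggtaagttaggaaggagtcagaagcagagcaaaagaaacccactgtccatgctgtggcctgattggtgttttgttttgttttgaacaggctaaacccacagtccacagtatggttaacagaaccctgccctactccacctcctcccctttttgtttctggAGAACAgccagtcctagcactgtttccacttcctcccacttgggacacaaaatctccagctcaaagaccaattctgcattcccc
The *Sgk1* window holds the full palindrome and a separate half-site upstream of it. The *Map3k6* window holds a palindrome of the looser form alone. The windows of *Tsc22d3* and *Sult1a1* hold half-sites alone. *Sgk1* has other RefSeq start sites, and 2 of their windows hold 1 half-site each, which are not shown.

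The libraries held 12034613 to 13202707 fragments, and 21854 loci passed edgeR's filter on low counts, the 10 genes among them. Levels are given as CPM, which are fragments scaled to a common TMM-adjusted library size. A fold change above 0 on the log2 scale means a higher level in the libraries labelled cKO. With edgeR's quasi-likelihood test and Benjamini-Hochberg adjustment at 0.05 over all loci, 6 loci were called higher and 110 lower in the libraries labelled cKO. The locus of the targeted gene, shared with *Hoxa6* and 2700086A05Rik, did not follow the labels. It held 202, 337 and 77 fragments in the libraries labelled control and 279, 57 and 63 in those labelled cKO. Replicate 1 of the labelled cKO thus lay above 2 of the labelled controls (edgeR adjusted p = 0.893 for the locus). These fragments are not divided among the genes of the locus and do not give the level of *Hoxa5* alone. By RT-qPCR on parts of the brainstem, the paper reports that *Hoxa5* transcripts fell severely in cKO. Fragments of 4 Y-linked genes numbered 3 in labelled cKO replicate 1 and 1069 to 1734 in the other libraries. Markers of brainstem neurons (*Tph2*, *Slc6a5*, *Chat*, *Hoxb4* and *Hoxb5*) were detected in every library. All 5 markers of cerebellar granule neurons and all 4 of Purkinje cells were called lower in labelled cKO, with a summed level of 285 to 548 CPM against 105 to 137 CPM for the granule markers. Both are cell types of the cerebellum, while the libraries were made from brainstem. In bulk tissue, less cerebellar tissue in a sample, fewer cells of a type and less RNA per cell cannot be told apart.

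All 10 genes had a higher mean in the libraries labelled cKO, by log2 fold changes of 0.09 to 0.85 with a median of 0.36, and a fold change above 0 was found at 51.4% of all loci, whose median was 0.00. None of the 10 was called higher, against 0.0275% of all loci, and none was called lower, against 0.503%. The genotypes did not overlap for 3 of the 10 genes, *Tsc22d3*, *Map3k6* and *Zbtb16*, and all labelled cKO libraries lay above all labelled controls at 5.61% of loci. For the other genes the overlap came from labelled control replicate 2. All 3 labelled cKO libraries lay above labelled control replicates 1 and 3 for all 10 genes, which was so for 10.6% of loci. Replicate 2 was the highest of the labelled controls for 9 of the 10 genes, against 32.1% of loci, and labelled control replicate 3 was the lowest of the 6 libraries for 7 of the 10, against 13.9%. The last 3 patterns were picked after the values were seen, and since these genes were chosen on the same values, nothing more is read from their counts.

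**Figure D1:**
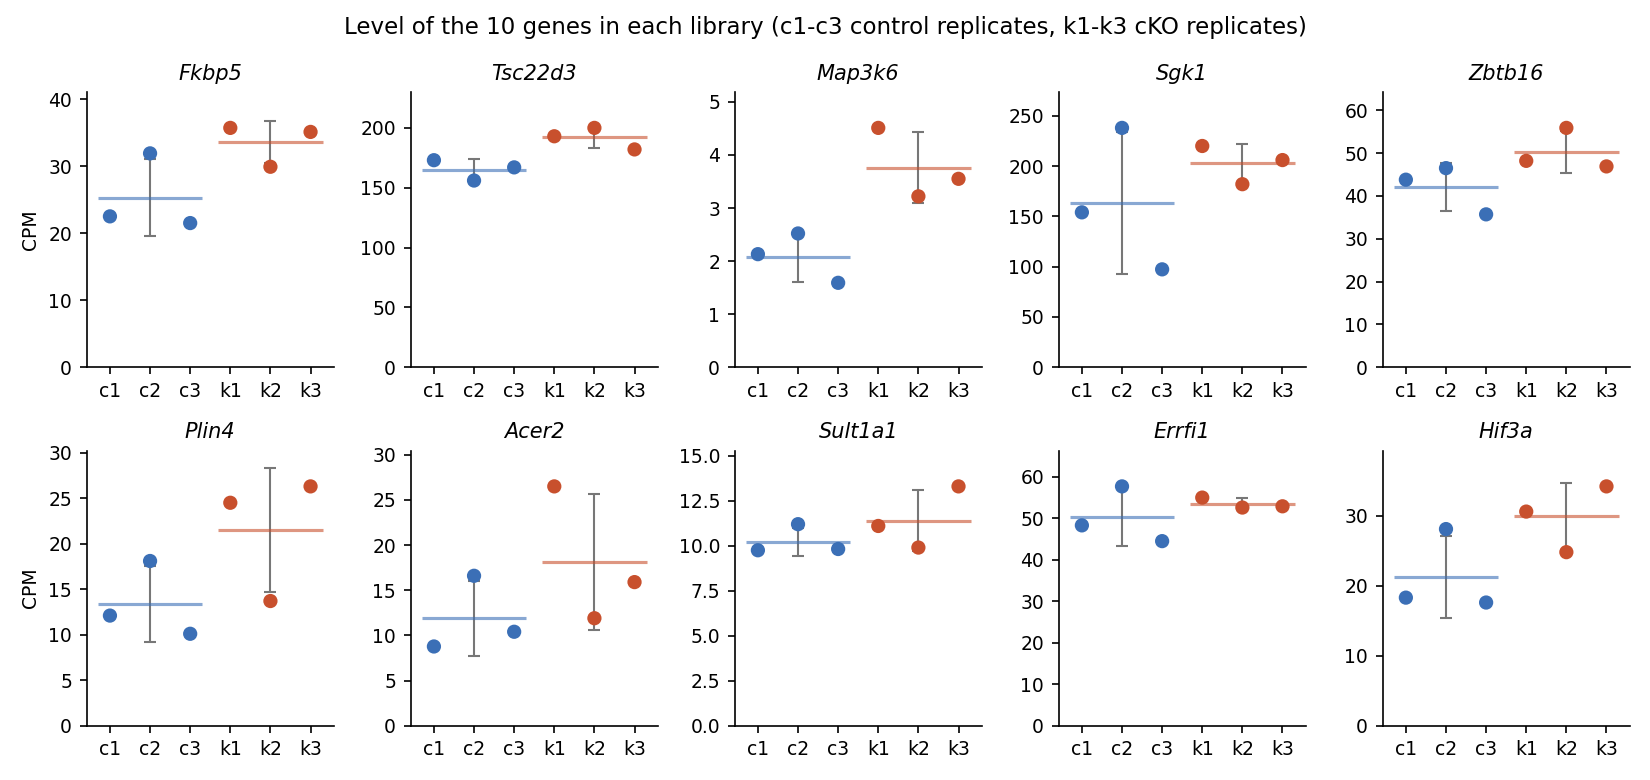
CPM (y axis, from 0) of each of the 10 genes in the labelled control libraries (blue, c1 to c3) and the labelled cKO libraries (red, k1 to k3), with the mean of each genotype as a line and the SD over 3 libraries as a bar. In all panels but that of *Tsc22d3*, c2 is the highest blue point, and in those of *Sgk1* and *Errfi1* it is above every red point.

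*Fkbp5* (chr17:28398745-28486112, minus strand, mm10) encodes a co-chaperone of the glucocorticoid receptor that lowers the receptor's affinity for hormone and so acts as a feedback brake. It stood at 22.5, 31.9 and 21.5 CPM in labelled control replicates 1 to 3 and at 35.7, 29.9 and 35.1 CPM in labelled cKO replicates 1 to 3. Labelled control replicate 2 lay among the cKO libraries, above their replicate 2, and the other controls lay well below all of them. The means were 25.3 ± 5.76 and 33.6 ± 3.17 CPM (SD, n = 3 each), which gave 0.41 ± 0.12 (SE) as the log2 fold change. Of the 10 genes, *Fkbp5* followed the rest most closely from library to library (r = 0.98 with the mean z-score of the other 9 genes, over 6 libraries).

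Regulators of transcription were represented by *Tsc22d3*, *Zbtb16* and *Hif3a*. *Tsc22d3* (chrX:140539472-140600522, minus strand) encodes GILZ, a leucine zipper protein that restrains inflammatory signalling. Its levels were 173, 156 and 167 CPM in the labelled controls and 193, 200 and 182 CPM in the libraries labelled cKO. Every cKO library lay above every control, by a small margin, and labelled control replicate 2, which was high for the other genes, was the lowest of the 6 here. The log2 fold change was 0.21 ± 0.05 (SE), with means of 165 ± 8.82 and 192 ± 9.08 CPM (SD, n = 3 each). *Tsc22d3* lies on the X chromosome, and the X-linked *Xist* RNA, which is made from the inactive X of female cells, gave 4482 to 4576 fragments in the labelled controls and 5326 to 6523 in the libraries labelled cKO. Labelled cKO replicate 1 had the most *Xist* fragments, 6523, and only 3 of the Y-linked genes, so its pool held almost no male RNA. This library was also the highest of all for *Fkbp5*, *Map3k6* and *Acer2*. The part of the sex of the pooled pups in the level of *Tsc22d3* or of the other genes was not tested.

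*Zbtb16* (chr9:48654297-48836355, minus strand) encodes PLZF, a zinc finger repressor that is strongly induced by glucocorticoids in many human cell types. It was measured at 43.8, 46.5 and 35.7 CPM in the labelled controls and at 48.2, 55.9 and 46.9 CPM in the labelled cKO libraries. The genotypes were separate, but labelled control replicate 2 and labelled cKO replicate 3 were nearly level. This gave a log2 fold change of 0.26 ± 0.09 (SE), which was 0.15 without labelled control replicate 3.

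*Hif3a* (chr7:17030611-17062427, minus strand) encodes a hypoxia-inducible factor subunit, some forms of which oppose the other members of its family. It gave 18.3, 28.1 and 17.6 CPM in the labelled controls and 30.6, 24.8 and 34.2 CPM in the labelled cKO libraries. As for *Fkbp5*, the labelled control replicate 2 exceeded the labelled cKO replicate 2 and the other controls were lower than any cKO library. The log2 fold change was 0.49 ± 0.14 (SE), from 21.3 ± 5.88 to 29.9 ± 4.75 CPM (SD, n = 3 each). The assembly holds 12 transcripts at this locus, and by the deposited FPKM, which depends on how fragments are divided among them, labelled control replicate 2 was the highest library, at 8.18 against 6.12 to 8.08 FPKM in the libraries labelled cKO.

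The kinases and the kinase inhibitor were *Sgk1*, *Map3k6* and *Errfi1*. *Sgk1* (chr10:21882053-21999902, plus strand) encodes a serum- and glucocorticoid-regulated kinase that acts on ion channels and transporters, and in the brain it is a known glucocorticoid target of oligodendrocytes. It showed the widest spread among the controls of any of the 10 genes in CPM, at 154, 238 and 97.3 CPM, while the labelled cKO libraries stood at 220, 182 and 206 CPM. The labelled controls thus held both the highest and the lowest library, with the 3 cKO libraries close together between them. The means were 163 ± 70.7 and 203 ± 19.2 CPM (SD, n = 3 each), a difference within the spread of the controls, and the log2 fold change was 0.32 ± 0.19 (SE).

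*Map3k6* (chr4:133240818-133252928, plus strand) encodes a stress-activated MAP kinase kinase kinase related to ASK1. It was the least abundant of the 10 genes, with 26, 31 and 21 fragments in the labelled controls and 54, 42 and 45 in the libraries labelled cKO. These correspond to 2.13, 2.52 and 1.59 CPM and to 4.51, 3.22 and 3.55 CPM. The genotypes did not overlap and the log2 fold change, 0.85 ± 0.23 (SE), was the largest of the 10, but each value rests on at most 54 fragments.

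*Errfi1* (chr4:150855080-150870865, plus strand) encodes MIG6, an inhibitor of the epidermal growth factor receptor. Its levels were 48.3, 57.7 and 44.5 CPM in the labelled controls and 55, 52.6 and 52.9 CPM in the labelled cKO libraries. The labelled control replicate 2 was the highest library and the others of its genotype the lowest, as for *Sgk1*. The log2 fold change of 0.09 ± 0.08 (SE) was the smallest of the 10 and close to its error.

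Genes of lipid and small-molecule metabolism were *Plin4*, *Acer2* and *Sult1a1*. *Plin4* (chr17:56100591-56109802, minus strand) encodes a perilipin, a coat protein of lipid droplets. It stood at 12.1, 18.1 and 10.1 CPM in the labelled controls and at 24.5, 13.7 and 26.3 CPM in the libraries labelled cKO. The labelled cKO replicates 1 and 3 were far above the rest, and labelled cKO replicate 2 lay between the controls. Its log2 fold change was 0.68 ± 0.21 (SE). The end of this locus shares 63 bases with *Hdgfrp2* on the other strand. The labels name a stranded kit, but whether the counting used strand is not stated.

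*Acer2* (chr4:86874414-86920881, plus strand) encodes an alkaline ceramidase of the Golgi, which releases sphingosine from ceramide. Its levels were 8.77, 16.6 and 10.4 CPM in the labelled controls and 26.5, 11.9 and 15.9 CPM in the labelled cKO libraries. Most of the difference came from labelled cKO replicate 1, and the other cKO libraries were below labelled control replicate 2. The log2 fold change was 0.60 ± 0.24 (SE). It was 0.22 without labelled cKO replicate 1 and 0.91 without labelled control replicate 2.

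*Sult1a1* (chr7:126672773-126676412, minus strand) encodes a phenol sulfotransferase. It was measured at 9.75, 11.2 and 9.82 CPM in the labelled controls and at 11.1, 9.9 and 13.3 CPM in the libraries labelled cKO. Labelled cKO replicate 3 was above the other libraries, which differed little. A log2 fold change of 0.16 ± 0.13 (SE) resulted, close to its error. This fold change was 0.03 without labelled cKO replicate 3 and 0.26 without labelled cKO replicate 2. This locus shares 163 bases with *Ccdc101* on the other strand.

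Measured per length, as FPKM, the levels of the 10 genes spanned a wide range. *Tsc22d3* and *Sgk1* were the most abundant, at 94.4 ± 4.86 and 78.1 ± 34.5 FPKM in the labelled controls (SD, n = 3 each), and did not differ beyond their spread. *Errfi1* followed at 16.5 ± 2.07 FPKM and *Zbtb16* at 10.2 ± 1.52 FPKM. *Sult1a1* (6.85 ± 0.537 FPKM), *Fkbp5* (5.74 ± 1.05 FPKM) and *Hif3a* (5.62 ± 2.23 FPKM) had overlapping control ranges. *Acer2* at 3.23 ± 1.12 FPKM, *Plin4* at 1.69 ± 0.532 FPKM and *Map3k6* at 0.481 ± 0.112 FPKM closed the order. In the libraries labelled cKO the order was the same except that *Fkbp5* drew level with *Sult1a1*, both at 7.56 FPKM.

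Most of the genes moved together across single libraries. Over the 10 genes, the mean log2 CPM was 4.57, 4.96 and 4.41 in labelled control replicates 1 to 3 and 5.19, 4.87 and 5.11 in labelled cKO replicates 1 to 3. Labelled control replicate 2 thus lay above labelled cKO replicate 2 and the other controls lay below all cKO libraries. The genotype means were 4.65 ± 0.28 and 5.06 ± 0.17 (SD, n = 3 each), a difference of 0.41 on the log2 scale. It was 0.57 without labelled control replicate 2 and 0.29 without labelled control replicate 3.

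**Figure D2:**
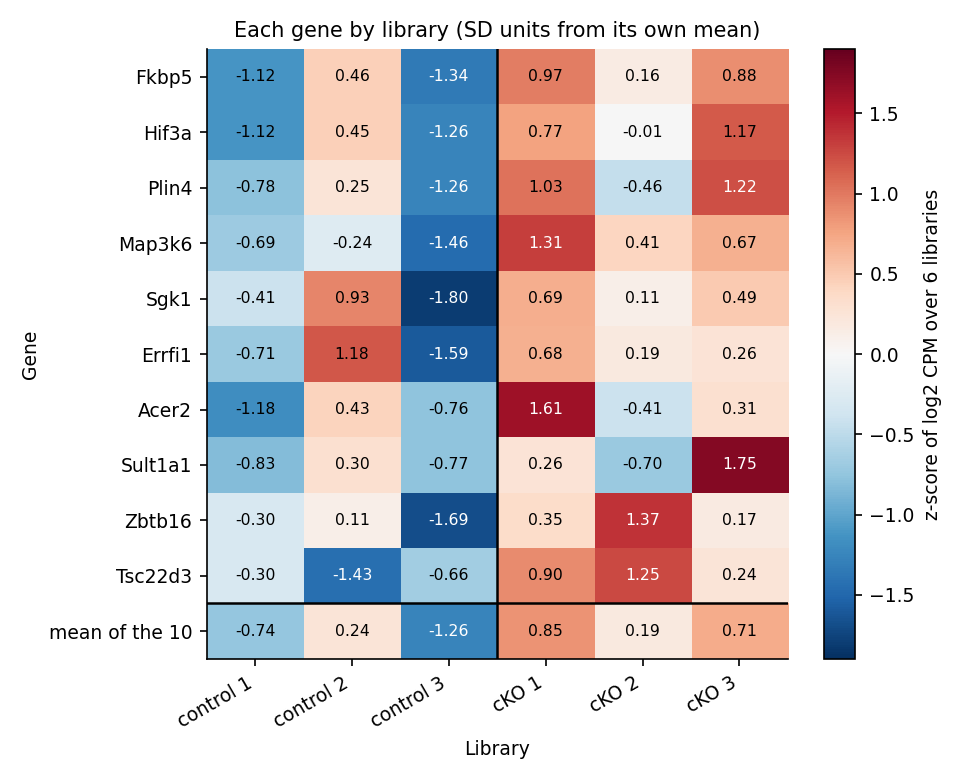
z-score of log2 CPM of each gene (rows) in each library (columns), in SD units from the gene's own mean over the 6 libraries, with the mean of the 10 genes in the last row. Labelled control replicates 1 and 3 have means of -0.74 and -1.26, and the other libraries lie between 0.19 and 0.85.

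Between pairs of genes, Pearson's r over the 6 libraries was above 0 in all 45 pairs, with a median of 0.75 (median Spearman's rho 0.77). These values are descriptions over 6 libraries that the pairs share, and they include the difference between the genotypes. With each genotype's mean removed, the median r was 0.66 and 35 of the 45 pairs stayed above 0. Of the 10 pairs below 0, 8 were pairs of *Tsc22d3*, which within the genotypes ran opposite to all of the others but *Zbtb16*, with r from -0.37 to -0.92. *Fkbp5* and *Hif3a* were the closest pair (r = 0.98), and *Tsc22d3* and *Sult1a1* the least alike (r = 0.02). Against the mean of the other 9 genes, r was 0.95 for *Hif3a*, 0.94 for *Map3k6*, 0.91 for *Plin4*, 0.87 for *Sgk1*, 0.83 for *Errfi1*, 0.79 for *Acer2*, 0.67 for *Zbtb16*, 0.65 for *Sult1a1* and 0.35 for *Tsc22d3*. *Tsc22d3* and *Zbtb16*, the 2 genes that were highest in labelled cKO replicate 2, were thus among the 3 that followed the others least.

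The calls changed with the libraries and the filter. Without labelled control replicate 2, edgeR called *Fkbp5*, *Sgk1* and *Hif3a* higher, 3 of the 10 genes against 0.0395% of all loci, with log2 fold changes of 0.61, 0.69 and 0.73. Without labelled cKO replicate 2, *Plin4* alone was called (0.0572% of loci), with a log2 fold change of 0.93. Without a filter on low counts, *Fkbp5*, *Tsc22d3*, *Plin4* and *Hif3a* were called (0.0873% of loci). These calls are on the contrast with which the genes were chosen and carry no weight as a test. Without labelled control replicate 3 the log2 fold change of *Sgk1* was 0.05 and that of *Errfi1* 0.01, and without labelled control replicate 2 that of *Errfi1* was 0.20.

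The chain that carries the hormone signal in the tissue was covered by 15 genes of receptors, hormone metabolism and export, chaperones and coregulators. Genes of steroid synthesis were not among them. Of the 15, *Hsd11b2*, whose enzyme inactivates corticosterone, had at most 8 fragments in a library and was not tested. None of the 14 genes tested was called by edgeR or by DESeq2, and their median log2 fold change was -0.04. At an unadjusted p under 0.05, edgeR gave 0 higher and 1 lower, against 636 (2.91%) and 880 (4.03%) of all loci. The 1 gene was *Nr3c1*, which encodes the glucocorticoid receptor. It stood at 122, 114 and 117 CPM in the labelled controls and at 106, 108 and 110 CPM in the libraries labelled cKO. The genotypes did not overlap, with every cKO library below every control as at 6.54% of all loci, but the log2 fold change of -0.12 ± 0.05 (SE) did not pass the test (edgeR adjusted p = 0.622). *Nr3c2*, the mineralocorticoid receptor, which binds corticosterone with higher affinity, had a log2 fold change of 0.05 ± 0.05 (SE, edgeR adjusted p = 0.912). It stood at 59.7, 61 and 60.3 CPM in the labelled controls and at 63.4, 61.9 and 62.8 CPM in the labelled cKO libraries, which lay above the controls without overlap, as at 5.61% of all loci. Over the 6 libraries *Nr3c2* followed the mean z-score of the 10 genes with an r of 0.89, and *Nr3c1* had -0.83. Of the 14 genes of the chain 1 had an r of 0.8 or more, and their median was -0.29. *Hsd11b1*, whose enzyme regenerates active hormone inside cells, was measured at 17.4 ± 3.03 and 14.9 ± 0.258 CPM (SD, n = 3 each), with -0.22 ± 0.12 as log2 fold change (SE, edgeR adjusted p = 0.777). The receptor's chaperones and co-chaperones *Hsp90aa1*, *Hsp90ab1*, *Fkbp4*, *Ptges3*, *Stip1* and *Bag1* had log2 fold changes between -0.05 and 0.00.

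Another list held 30 genes that respond to glucocorticoids in various tissues. It was written from general knowledge, with earlier results of these data known, and its counts are a description. None of the 30 was called by edgeR or DESeq2. The median log2 fold change was 0.10, against 0.00 over all loci, and 22 of the 30 were above 0, against 51.4% of all loci. At an unadjusted p under 0.05, edgeR gave 10 higher, against 2.91% of all loci, and 1 lower, against 4.03%. Their mean log2 CPM was 4.76, 4.85 and 4.53 in the labelled controls and 4.87, 4.80 and 4.89 in the labelled cKO libraries, a difference of 0.14 (exact two-sided permutation p = 0.2, where 0.1 is the smallest that 3 against 3 libraries allow). Here too, labelled control replicate 2 lay among the cKO libraries and labelled control replicate 3 was the lowest.

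*Arrdc2*, an arrestin-domain gene, showed the pattern of the 10 genes most clearly, at 12.3, 22.6 and 9.82 CPM in the labelled controls and 22.7, 20.5 and 22.9 CPM in the labelled cKO libraries. Its log2 fold change of 0.57 ± 0.19 (SE) was not called (edgeR adjusted p = 0.406). Without labelled control replicate 2 it was 1.00 and was called (edgeR adjusted p = 0.00072, range over the alternatives 0.00072 to 1). That library was the only control at the level of the cKO libraries. With 1 library left out, the log2 fold change of *Arrdc2* ran from 0.33 to 1.00. The list was written with earlier results known, so this call carries no weight as a test. *Cdkn1a*, which encodes the cell cycle inhibitor p21 and is also a target of p53, stood at 5.98, 7.25 and 4.46 CPM and at 7.93, 8.67 and 9.63 CPM, with no overlap and a log2 fold change of 0.58 ± 0.16 (SE, edgeR adjusted p = 0.199).

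Among astrocyte-expressed genes of this list, *Glul*, glutamine synthetase, had 1015 ± 17.3 and 1150 ± 82.8 CPM (SD, n = 3 each; log2 fold change 0.18, edgeR adjusted p = 0.166). *Gjb6*, a gap junction connexin, had a log2 fold change of 0.20 (edgeR adjusted p = 0.395), and *Mt2*, a metallothionein, 0.23 (edgeR adjusted p = 0.441). *Fam107a*, an actin-binding stress gene that glucocorticoids raise in the mouse brain, pointed the other way, with 93.1, 78 and 78.3 CPM in the labelled controls and 73.3, 68.5 and 64.4 CPM in the libraries labelled cKO. It had the smallest p of the list and a log2 fold change of -0.27 ± 0.07 (SE, edgeR adjusted p = 0.137, range over the alternatives 0.0313 to 0.85). It was called with the replicate block (edgeR adjusted p = 0.037), without labelled cKO replicate 1 (0.0427) and without a filter on low counts (0.0313).

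**Figure D3:**
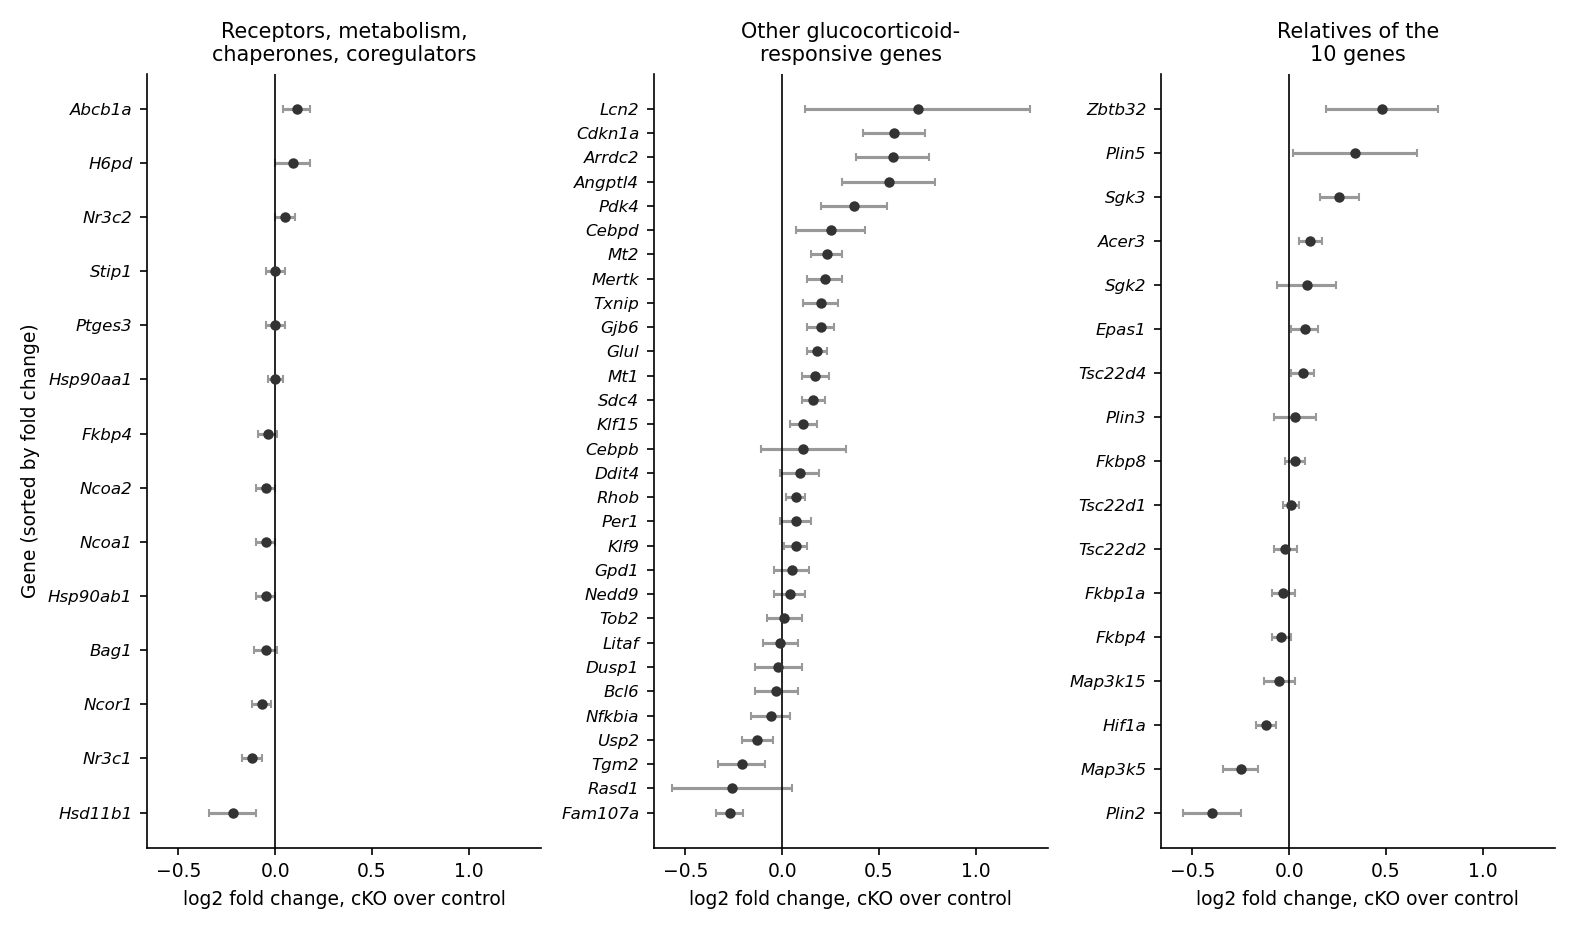
log2 fold change, labelled cKO over labelled control (x axis), with its SE as a bar, for the tested genes of 3 lists, sorted within each panel. Of the genes in the middle panel 22 of 30 lie above 0, with *Fam107a* the lowest at -0.27, and the receptors and chaperones in the left panel lie close to 0.

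Relatives of the 10 genes were read as a comparison, since they share a family with the 10 genes and were not listed as hormone targets. Of 22, 17 were tested, none was called by edgeR or DESeq2, and the median log2 fold change was 0.03. At an unadjusted p under 0.05, edgeR gave 1 higher and 3 lower, against 2.91% and 4.03% of all loci. *Sgk3*, a kinase close to *Sgk1*, was at 14.8, 14.8 and 14.7 CPM in the labelled controls and 18.9, 15.9 and 18.5 CPM in the labelled cKO libraries (log2 fold change 0.26, edgeR adjusted p = 0.512). *Plin2*, the perilipin of most tissues, was at 8.78 ± 0.895 and 6.66 ± 1.34 CPM (SD, n = 3 each; log2 fold change -0.40, edgeR adjusted p = 0.544), a sign opposite to that of *Plin4*. *Map3k5*, which encodes ASK1, had -0.25 (edgeR adjusted p = 0.495), against 0.85 for *Map3k6*, and *Hif1a* had -0.12 (edgeR adjusted p = 0.575), against 0.49 for *Hif3a*. *Zbtb32* had 0.48 and *Acer3* 0.11, with edgeR adjusted p-values of 0.847 and 0.802.

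Clock genes and immediate early genes were read beside the 10 genes, as the first vary with the hour and the second with recent neuronal activity. None of the 12 clock genes and 10 immediate early genes was called by edgeR or DESeq2. At an unadjusted p under 0.05 edgeR gave 0 higher and 2 lower clock genes, against 2.91% and 4.03% of all loci, and 0 immediate early genes. The 2 were *Arntl* and *Clock*, with log2 fold changes of -0.25 and -0.11. Every labelled cKO library lay below every labelled control for 3 of the 12 clock genes, against 6.54% of all loci. Mean log2 CPM of the clock genes stayed between 5.19 and 5.34 in all libraries (exact permutation p = 0.9). Clock genes do not all peak at the same hour, so shifts can cancel in this mean, and it does not compare the hours of collection. The immediate early genes stood at 2.95, 2.74 and 3.09 in the labelled controls and at 2.65, 3.17 and 2.81 in the labelled cKO libraries (exact permutation p = 0.8). Within each genotype this order was the reverse of that of the 10 genes: the controls had their lowest value in replicate 2, and the cKO libraries their highest in replicate 2.

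**Figure D4:**
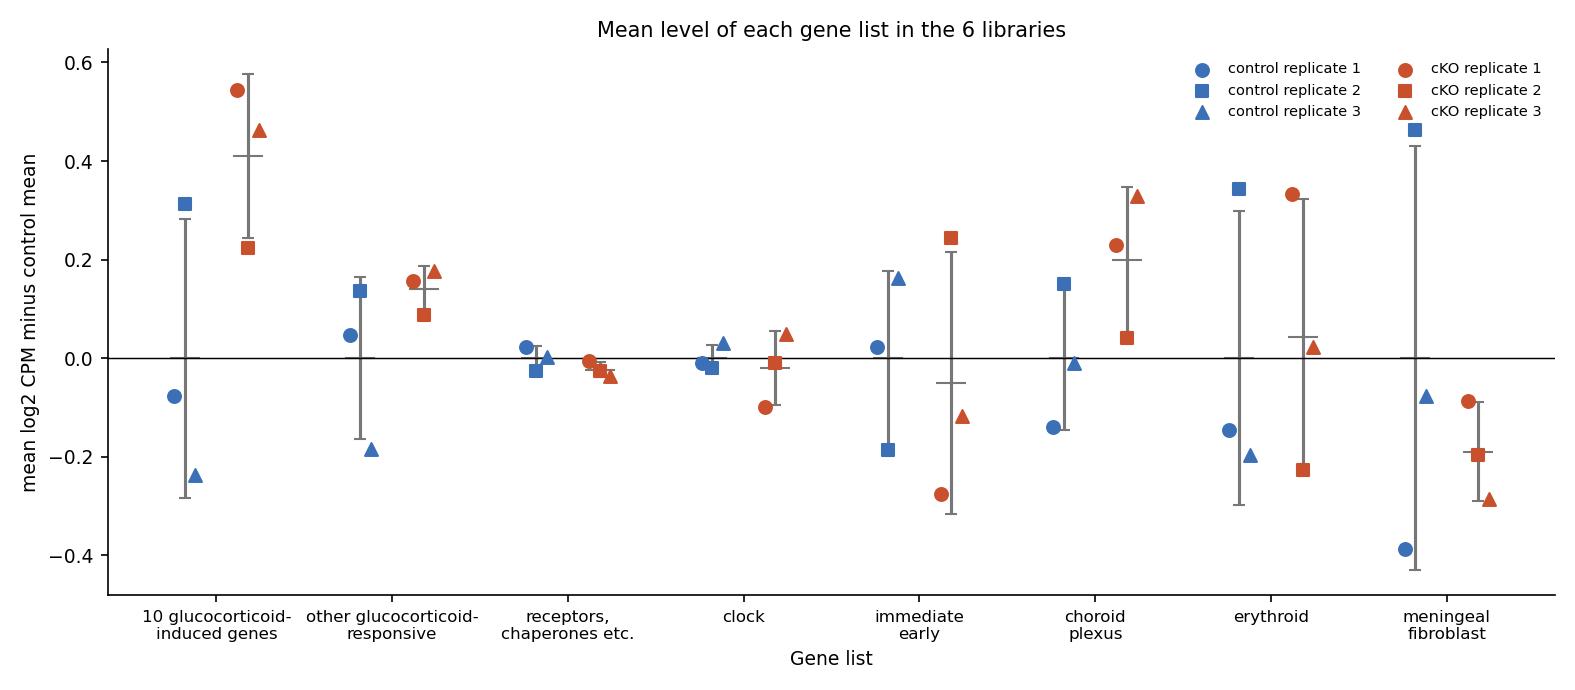
Mean log2 CPM of each gene list minus its mean over the labelled controls (y axis), for each library (blue control, red cKO, the symbol giving the replicate), with the genotype mean and SD over 3 libraries in grey. For the 10 genes the labelled control replicate 2 lies at 0.31, above labelled cKO replicate 2 at 0.22, and the immediate early genes show the opposite order within each genotype.

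Across all genes, likeness to the mean z-score of the 10 genes was measured by Pearson's r over the 6 libraries, for 14411 loci with 1 gene name and a mean of at least 1 CPM. An r of 0.8 or more was found for 468 of them (3.25%), and the median was -0.03. Among the other glucocorticoid-responsive genes it was found for 5 of 29 (17.2%), with a median of 0.58. These were *Arrdc2* (0.97), *Cdkn1a* (0.92), *Pdk4* (0.92), *Mertk* (0.92) and *Klf9* (0.81), of which *Pdk4*, *Mertk* and *Klf9* are named after their values were seen. The medians were -0.29 for the signal chain, 0.25 for the relatives, -0.30 for the clock genes and -0.59 for the immediate early genes. An r of 0.8 or more was also found for 2 of 16 relatives (12.5%) and 1 of 14 genes of the signal chain (7.14%). It was found for 2 of 3 choroid plexus markers with a single gene name (66.7%), and for no clock or immediate early gene.

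The 10 genes outside the list that were most like it were *Gp1ba*, *Pcyox1*, *Slc1a1*, *Mta3*, *Uhmk1*, 4930419G24Rik, *Lin54*, *Ptpdc1*, *Pfkfb3* and *Arrdc2*, with r from 0.968 to 0.996. Most of them shared the order of the libraries but hardly the size of the movement. *Slc1a1*, a neuronal glutamate transporter, was at 111, 116 and 109 CPM in the labelled controls and 119, 114 and 117 CPM in the labelled cKO libraries, a ratio of highest to lowest library of 1.09. *Arrdc2*, with a ratio of 2.33, had the widest range of these genes, and *Gp1ba*, a platelet surface glycoprotein gene at 1.06 to 1.92 CPM, the next, with 1.81. Among the 10 glucocorticoid-induced genes the ratio ran from 1.28 for *Tsc22d3* to 3.02 for *Acer2*.

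Markers of other cell types were read library by library. The 5 brainstem neuron markers named above had a mean log2 CPM of 4.51, 4.68 and 4.47 in the labelled controls and 4.81, 4.49 and 4.69 in the labelled cKO libraries, an order close to that of the 10 genes. Labelled control replicate 2 was the highest control for 4 of the 5. Their log2 fold changes were 0.03 to 0.19, none was called or had an unadjusted p under 0.05 in edgeR, their mean differed by 0.11 (exact permutation p = 0.4), and their median r with the 10 genes was 0.56. Of the 4 pan-neuronal markers, *Rbfox3*, which encodes NeuN, was called lower, with 82.6 ± 2.58 CPM in the labelled controls and 67.3 ± 3.16 CPM in the labelled cKO libraries (SD, n = 3 each; log2 fold change -0.30, edgeR adjusted p = 0.0205), and the other 3 were not called. The 4 choroid plexus markers, of which *Clic6* shares its locus with 2410124H12Rik and none was at 0, had a like order, with a summed level of 388, 533 and 453 CPM in the labelled controls and 628, 496 and 638 CPM in the labelled cKO libraries. Their mean differed by 0.20 on the log2 scale (exact permutation p = 0.2), none was called, and *Ttr*, transthyretin, which makes up most of the sum, had an r of 0.87 with the 10 genes. The 3 erythroid markers summed to 223, 326 and 220 CPM and to 334, 218 and 261 CPM, high in labelled control replicate 2 and labelled cKO replicate 1. Most of this sum was globin, *Hbb-bs* and *Hba-a1*, the latter on a locus shared with *Hba-a2*. The third marker, *Alas2*, stood at 58.2, 64.8 and 56.4 CPM and at 63.9, 68 and 67.2 CPM, highest in labelled cKO replicate 2. The 4 meningeal fibroblast markers summed to 216 CPM in labelled control replicate 2, against 122 to 152 CPM in the other libraries. Most of this excess was *Col1a1*, at 101 CPM there and 27.9 to 33 CPM elsewhere. *Lum*, at 3.42 CPM, was also highest there, while *Dcn* was highest in labelled control replicate 3 and *Igf2* in labelled cKO replicate 1. The part of neurons, choroid plexus, blood or meninges in the levels of the 10 genes was not tested. The mean levels of astrocyte, oligodendrocyte, endothelial, mural and microglial markers differed between the genotypes by 0.03 or less on the log2 scale, and none of these 29 markers was called. For the 3 oligodendrocyte precursor markers the difference was 0.02, and none was called. An r of 0.8 or more with the 10 genes was found for *Pdgfra* (0.83), 1 of the 3 precursor markers, and *Abcc9* (0.96), 1 of 5 mural markers. It was also found for *Alas2* (0.87), 1 of the 2 erythroid markers with a single gene name. No astrocyte, oligodendrocyte, endothelial or microglial marker reached it. A list mean does not show how its single markers moved.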

How the data were processed

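RNA from whole P21 brainstems was sequenced by the authors as 3 pools per genotype after ribosomal RNA depletion. Per the submitters' processing notes, base calling used CASAVA 1.6, alignment to mm10 TopHat2 2.0.9, assembly Cufflinks 2.2.0 and quantification Cuffdiff. The deposited table gives whole fragment counts per locus and library, and FPKM that the authors obtained with Cuffdiff. Its 2 per-library columns of scaled fragments were not used. Gene names came from the deposited assembly.

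Counts of all 6 libraries were scaled by TMM, filtered with filterByExpr and compared with edgeR 4.0.16 (quasi-likelihood test, R 4.3.3). Adjustment was by the Benjamini-Hochberg method over 21854 loci. The common coefficient of biological variation was 0.0552. Depth was 12034613 to 13202707 fragments, and *Map3k6* had the fewest fragments of the 10 genes, at most 54 in a library. log2 CPM used a prior count of 2. z-scores and correlations were over libraries, and list means were compared by an exact permutation test, computed in Python 3.11.15 (scipy 1.17.1, pandas 2.3.3, numpy 2.4.6). The p-values measure the spread between pools. The code was tested on simulated data.

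The 10 genes and the lists were chosen with earlier results of these data known. Named genes are the 10 genes, the receptors, *Hsd11b1* and chaperones, up to 6 genes of smallest p per list, and the 10 genes most like the 10 genes' profile. Other genes are said to be chosen after their values were seen, and markers are named from their lists. All 164 genes of the 6 gene lists and 14 marker lists were found, 2 under older names. Alternatives were DESeq2 1.42.0 and limma 3.58.1 with a trend on log2(FPKM + 1) or log2(FPKM + 0.1), each with a minimum of 1 FPKM in 3 libraries. The limma fit on log2(FPKM + 1) was also run without this minimum. The others were library size or upper-quartile scaling, other filters, loci with a single name, a replicate block, and each library left out. One gene of the marker lists is not reported here.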

Additional observations from a re-analysis of the deposited data

How the results depend on the processing

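The difference of the mean level of the 10 genes stayed above 0 under all 16 alternatives, from 0.29 to 0.57 when 1 library was left out and from 0.30 to 0.42 otherwise. Each of the 10 genes kept a log2 fold change above 0 wherever it was in the fit. *Map3k6* was absent from the fit with at least 50 fragments and from both limma fits with a minimum FPKM, and by limma on log2(FPKM + 1) without a filter its log2 fold change was 0.33, a scale that understates changes of low genes. No gene of the signal chain or of the relatives was called under any of the 16 alternatives.

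Of the other glucocorticoid-responsive genes, 2 were called without a filter on low counts (*Fam107a* and *Glul*), 1 with the replicate block (*Fam107a*), and 0 to 1 with a library left out: *Fam107a* without labelled cKO replicate 1 and *Arrdc2* without labelled control replicate 2. The calls over all loci moved more. Against 6 higher and 110 lower, DESeq2 gave 3 higher, a minimum of 50 fragments 1 higher, loci with a single name 2 higher and 70 lower, no filter 27 higher and 194 lower, limma on log2(FPKM + 0.1) 0 higher and 1 lower, and limma on log2(FPKM + 1) 0 of either, with or without a filter. With 1 library left out there were 0 to 15 higher and 42 to 126 lower calls. The cause of these differences was not tested.

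Same-numbered libraries of the genotypes did not deviate together (correlations of 0.03, -0.08 and 0.05), so the numbers were not taken as pairs. With the replicate block, 8 loci were called higher and 122 lower, and the mean difference of the 10 genes was 0.41. Low depth limits *Map3k6* and low genes of the lists, and 3 libraries per genotype limit every comparison.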
